A study of Mus musculus with 15 samples.

Results

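The nuclear-encoded subunits of the respiratory chain were described in mouse liver. Members were taken by symbol alone: gene names that begin with Nduf, Sdh, Uqcr, Cox4 to Cox8 or Atp5 in the forms used for subunits, together with Cyc1. They were 86 of the 26264 genes in the count table. By symbol, 38 belong to complex I, 4 to complex II, 9 to complex III, 18 to complex IV and 17 to complex V. Ndufa4 is grouped here with complex I by its symbol, although it is now regarded as a subunit of complex IV.

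The respiratory chain sits in the inner mitochondrial membrane. Complex I (NADH dehydrogenase) and complex II (succinate dehydrogenase) pass electrons to ubiquinone, complex III passes them to cytochrome c, and complex IV passes them to oxygen. Complexes I, III and IV pump protons, and complex V, the ATP synthase, uses the proton gradient to make ATP. Apart from complex II, each complex joins subunits made from nuclear genes with subunits made from mitochondrial DNA, and only the nuclear genes are in the table.

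The study asked how mice fed a high-fat diet as a model of MASLD, the fatty liver disease tied to metabolic dysfunction, responded to Gc337, an antisense oligonucleotide that lowers the kinase gene Stk25, or to resmetirom, a drug that activates the liver-enriched beta form of the thyroid hormone receptor. Polyadenylated RNA from whole liver was sequenced in 15 libraries, 3 in each of 5 groups. The groups are named HFD-337, HFD-338, HFD-Res, HFD-NS and SD-NS. The first 4 share the high-fat diet, and SD-NS carries no HFD in its name. The labels do not say what the code HFD-338, NS or SD stands for, and they give no strain, sex, age, dose or length of treatment. HFD-337 and HFD-Res are read from their names as the Gc337 and resmetirom groups. Nothing in the labels names an oligonucleotide of unrelated sequence as a control, so an agent's general effects and the loss of Stk25 cannot be told apart. Nothing says more of the animals than that each library is its own sample, so p-values measure the spread between these samples only.

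Stk25, the target, had 19.1, 18.8 and 14.6 CPM (counts scaled to library size) in the HFD-337 libraries, against 48.6, 43.7 and 47.3 CPM in the HFD-NS libraries. It was also low in the HFD-338 libraries, at 22.0, 21.9 and 20.5 CPM, while HFD-Res had 46.9, 37.7 and 41.3 CPM and SD-NS had 50.6, 53.3 and 47.8 CPM. Total counts ran from 3873903 to 9797743 per library, and the members took between 1.06% and 1.58% of them. Summed CPM of hepatocyte markers was 86410 to 127085 in HFD-337, 93570 to 99636 in HFD-338, 69588 to 78043 in HFD-Res, 97837 to 111134 in HFD-NS and 107661 to 132019 in SD-NS, so liver tissue was sampled in every group. Skeletal muscle markers summed to at most 1.41 CPM in any library. Brown adipocyte markers set the HFD-NS group apart, with sums of 0.203 to 1.77 CPM in HFD-337, 0.124 to 2.05 in HFD-338, 1.71 to 1.89 in HFD-Res, 4.35 to 43.3 in HFD-NS and 0 to 0.194 CPM in SD-NS livers, while the defining marker Ucp1 was at 0 in every group. Cidea, a lipid droplet protein, was the 1 marker with enough counts to test. It was called by edgeR and DESeq2 in each of the 4 comparisons that use HFD-NS, and by limma-voom in none of them. The part of this difference in the results was not tested.

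Promoters of 70 of the 86 members were matched in a RefSeq table built on mouse GRCm38.p6, an older build than the mm39 on which the reads were counted. Each window spans 250 bases before to 50 bases after the start of the gene. The sequences below are shown because they show the same motif, that of nuclear respiratory factor 1 (NRF1), around the start of 2 members that rose in HFD-337 livers (Ndufb4 and Atp5h) and of 2 that fell (Sdha and Uqcrc1). They were picked after the values had been seen. Windows are on the minus strand for Ndufb4 (chr16:37654319-37654618), Atp5h (chr11:115419870-115420169) and Sdha (chr13:74350191-74350490), and on the plus strand for Uqcrc1 (chr9:108936398-108936697). Capitals mark the matches found by script.
Ndufb4: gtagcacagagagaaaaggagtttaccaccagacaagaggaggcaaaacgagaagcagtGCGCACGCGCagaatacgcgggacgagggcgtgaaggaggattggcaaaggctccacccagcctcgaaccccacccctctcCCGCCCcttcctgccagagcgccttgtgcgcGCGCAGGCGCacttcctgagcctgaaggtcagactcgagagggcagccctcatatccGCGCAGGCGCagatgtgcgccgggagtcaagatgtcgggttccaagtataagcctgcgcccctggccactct
Atp5h: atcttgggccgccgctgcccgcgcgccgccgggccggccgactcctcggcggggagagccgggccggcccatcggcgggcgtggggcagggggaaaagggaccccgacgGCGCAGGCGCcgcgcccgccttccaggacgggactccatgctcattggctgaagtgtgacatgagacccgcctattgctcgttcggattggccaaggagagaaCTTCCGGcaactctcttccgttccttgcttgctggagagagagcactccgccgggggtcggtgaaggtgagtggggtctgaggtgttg
Sdha: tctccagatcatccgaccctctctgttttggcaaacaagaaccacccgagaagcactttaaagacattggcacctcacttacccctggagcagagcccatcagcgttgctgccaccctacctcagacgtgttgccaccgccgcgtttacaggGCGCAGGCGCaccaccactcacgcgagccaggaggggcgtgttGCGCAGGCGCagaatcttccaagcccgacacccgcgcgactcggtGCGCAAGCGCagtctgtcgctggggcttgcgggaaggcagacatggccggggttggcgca
Uqcrc1: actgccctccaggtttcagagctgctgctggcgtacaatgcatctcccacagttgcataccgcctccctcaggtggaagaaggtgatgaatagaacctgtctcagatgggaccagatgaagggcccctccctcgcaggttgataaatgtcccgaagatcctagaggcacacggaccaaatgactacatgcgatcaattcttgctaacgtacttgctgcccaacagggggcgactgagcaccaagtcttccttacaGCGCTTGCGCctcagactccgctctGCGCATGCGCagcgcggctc

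Ndufb4 and Sdha each held 3 NRF1 matches, Uqcrc1 held 2 and Atp5h held 1, and Ndufb4 also held a GC box and Atp5h an ETS match. Both Uqcrc1 matches lie after the start of the gene, at 5 and 30 bases past it, and the other matches lie before it. None of these matches overlap. Over both strands, the NRF1 motif (GCGCA, any base, then GCGC) was found in 17 of the 70 member promoters (24.3%), against 5.19% of 27025 genes with a promoter. The ETS motif CCGGAAG, which the factor GABP recognises, was also found in 17 (24.3%), against 9.93% of genes. The YY1 motif AAGATGGC was found in 10 (14.3%), against 3.19%. The GC box GGGCGG stood in 29 (41.4%), against 38.2%, the cyclic AMP response element TGACGTCA in 4, against 2.03% of genes, and the estrogen-related receptor motif TCAAGGTCA in 2, against 0.466%. By the change in HFD-337 against HFD-NS, the NRF1 motif stood in the window of 10 of 40 members that rose, 3 of 5 that fell and 4 of 22 that were not called. In the same order, the ETS motif stood in 11, 0 and 6, YY1 in 6, 0 and 4, and the GC box in 16, 1 and 10. The cyclic AMP element stood in 3, 0 and 1, and the estrogen-related receptor motif in 0, 0 and 2. Only 40 of the 46 members that rose and 5 of the 10 that fell had a matched promoter.

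Levels between members were compared as TPM, which scales counts by exon length and then by library. The most abundant members in HFD-337 livers were the complex IV subunits Cox7c at 1563 ± 218 TPM and Cox6b1 at 1488 ± 161 TPM (SD, n = 3). In HFD-338 livers Ndufa4 led at 1564 ± 64.4 TPM, in HFD-Res livers Cox6c at 1197 ± 54.2 TPM, and in HFD-NS livers Cox6c at 1199 ± 69.6 TPM and Ndufa4 at 1191 ± 92.7 TPM. SD-NS livers had Ndufa4 first, at 1123 ± 14.6 TPM. Cox6c and Ndufa4 in HFD-NS livers did not differ beyond their spread. The lowest tested members were Cox7a1, the heart and skeletal muscle isoform of its subunit, and Atp5g2, a gene for the c-ring. The annotated exons of Atp5g2 lie on several chromosomes, so its exon length and TPM are uncertain. It was left out of the correlations of change with length below. Cox7a1 averaged 7.45 TPM in HFD-337, 6.81 in HFD-338, 10.5 in HFD-Res, 8.43 in HFD-NS and 6.93 in SD-NS livers, and Atp5g2 averaged 8.42, 10.4, 11.8, 11.1 and 10.8 TPM in the same order of groups.

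Of the 86 members, 80 had enough counts to test. The other 6 are complex IV isoforms known from muscle, lung or testis. Cox4i2 had 7 counts over the 15 libraries, Cox6a2 had 10, Cox6b2 had 48, Cox7b2 had 1, Cox8b had 6 and Cox8c had 0. All further counts are of the 80 tested members, each of which passed the low-count filter in some of the libraries, and calls use an adjusted p under 0.05 from edgeR's quasi-likelihood test with Benjamini-Hochberg adjustment over 13189 genes.

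Summed over each complex, mRNA was highest in HFD-337 livers for every complex but II. The complex I sum includes Ndufa4, which averaged 1175 TPM in HFD-337, 1564 in HFD-338, 1021 in HFD-Res, 1191 in HFD-NS and 1123 in SD-NS livers. Complex I summed to 11953 ± 858 TPM in HFD-337, 8306 ± 261 in HFD-338, 9041 ± 416 in HFD-Res, 9111 ± 372 in HFD-NS and 7930 ± 383 TPM in SD-NS livers (SD, n = 3 each). Complex IV was likewise highest in HFD-337 livers, with 9286 ± 684 TPM in HFD-337, 5965 ± 78.6 in HFD-338, 7188 ± 284 in HFD-Res, 7174 ± 327 in HFD-NS and 6170 ± 178 TPM in SD-NS livers, HFD-338 and SD-NS being the lowest. Complex II went otherwise, with 949 ± 87.3 TPM in HFD-337, 943 ± 49.3 in HFD-338, 1105 ± 30.6 in HFD-Res, 1204 ± 7.60 in HFD-NS and 1021 ± 14.1 TPM in SD-NS livers. The summed exon length of its subunits is 1079 bases for Sdhb, 1179 for Sdhc, 1285 for Sdhd and 2859 for Sdha. Of all 13189 tested genes, 9504 have 2000 bases or more. The falls of Sdha and Sdhc in HFD-337 against HFD-NS, given below, remained called with an offset for exon length. The part of exon length in the sums of complex II was not tested. The HFD-337 and HFD-338 sums of complex II did not differ beyond their spread.

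Complex III summed to 4216 ± 266 TPM in HFD-337, 3206 ± 87.6 in HFD-338, 3742 ± 107 in HFD-Res, 3588 ± 103 in HFD-NS and 3347 ± 88.6 TPM in SD-NS livers. Complex V summed to 9656 ± 405 TPM in HFD-337, 7919 ± 248 in HFD-338, 8962 ± 204 in HFD-Res, 8623 ± 157 in HFD-NS and 7958 ± 256 TPM in SD-NS livers. All members together made 37936, 36498 and 33746 TPM in the HFD-337 libraries, against 30582, 28694 and 29824 TPM in the HFD-NS libraries. These sums carry no test and no correction for the trend of change with exon length described below. With an offset for that trend, the members' median log2 fold change in HFD-337 against HFD-NS was -0.10. In bulk tissue, fewer cells of a type and less RNA per cell cannot be told apart.

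**Figure D1:**
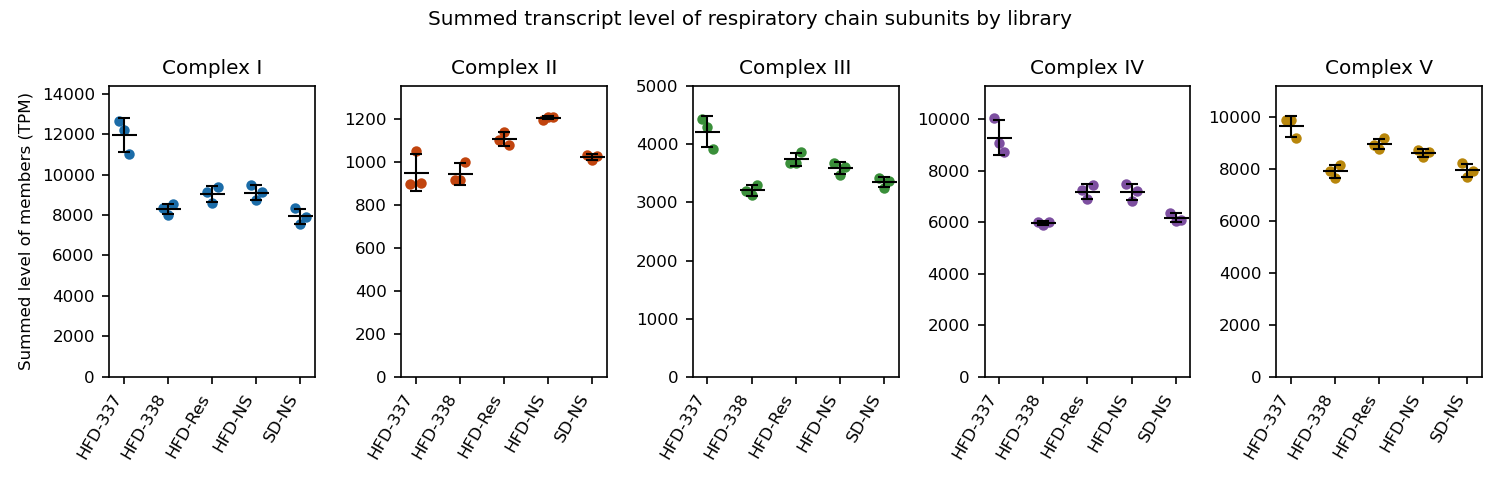
Summed TPM of each complex in every library (points) with the group mean and SD. HFD-337 libraries are the highest for complexes I, III, IV and V on average, while for complex II the HFD-NS libraries lie above every HFD-337 and HFD-338 library.

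In HFD-337 livers against HFD-NS livers the chain did not move as 1 block. Many small accessory subunits rose and several large catalytic subunits fell, with exceptions on both sides. The core subunits Ndufs7, Ndufs8 and Ndufv2 rose, and the small accessory subunit Ndufs5 fell. The split also went with exon length over all genes, as set out below. Of all tested genes with under 600 bases of exon, 155 of 277 rose. In mm39, the build of the counts, 3 of the genes that rose lie at chr16:37467964-37474730 (Ndufb4), chr11:53318749-53321658 (Uqcrq) and chr2:174302868-174305894 (Atp5e), all on the minus strand. Of those that fell, Ndufs1 lies at chr1:63182751-63215981 and Sdha at chr13:74470374-74498359 on the minus strand, and Atp5b at chr10:127919176-127926257 on the plus strand. Among the 80 members, 46 rose and 10 fell, where over all tested genes 47.2% were called, 24.4% as rises and 22.8% as falls. The median log2 fold change was 0.33 over the members and 0.03 over all tested genes. The groups did not overlap, with HFD-337 higher, for 50 members (27.1% of all genes) and with HFD-337 lower for 9 (25.7% of all genes).

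Complex I had 25 rises and 4 falls among its 38 members. The 7 core subunits, which carry the flavin and the iron-sulfur clusters, split into 3 rises and 3 falls, while 22 of the 31 accessory subunits rose and 1 fell. The largest rise of the complex was Ndufb4, an accessory subunit of the membrane arm, with 155, 136 and 116 CPM in HFD-337 livers, against 47.6, 42.1 and 45.9 CPM in HFD-NS livers. The groups lay far apart, with a log2 fold change of 1.59 ± 0.168 (SE; edgeR quasi-likelihood, adjusted p = 1.93e-06). Ndufs7, a core subunit that holds the cluster next to the ubiquinone site, had 66.2, 84.7 and 74.3 CPM in HFD-337 livers, against 36.8, 32.9 and 39.2 CPM in HFD-NS livers (1.05 ± 0.144, edgeR adjusted p = 1.08e-05). The accessory subunit Ndufb7 rose to a like degree, with 109, 119.6 and 90.1 CPM in HFD-337 livers, against 53.8, 49.2 and 54.0 CPM in HFD-NS livers (1.03 ± 0.125, edgeR adjusted p = 2.7e-06). For each of these genes the lowest HFD-337 library lay above the highest HFD-NS library.

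Ndufs1, the largest core subunit and part of the electron path from NADH, went the other way. It had 77.2, 98.0 and 80.2 CPM in HFD-337 livers, against 139.7, 138 and 138 CPM in HFD-NS livers, and its log2 fold change was -0.70 ± 0.11 (edgeR adjusted p = 4.26e-05). The groups did not overlap. Ndufv1, which binds NADH and the flavin, was also lower, with 72.5, 92.0 and 92.1 CPM in HFD-337 livers, against 104, 104 and 105 CPM in HFD-NS livers, but its call was lost without HFD-NS replicate 13 (edgeR adjusted p = 0.051), HFD-NS replicate 16 (0.0513) or HFD-337 replicate 23 (0.132). The accessory subunit Ndufs5 fell with few counts, at 7.09, 9.91 and 8.52 CPM in HFD-337 livers, against 12.6, 11.4 and 11.7 CPM in HFD-NS livers (-0.46 ± 0.185, edgeR adjusted p = 0.0458). Its adjusted p was 0.113, 0.068 and 0.0763 without HFD-NS replicate 12, 13 and 16, and 0.155 and 0.0772 without HFD-337 replicate 23 and 27, and Ndufs5 has near-identical pseudogene copies that can take its reads. Ndufs8 and Ndufv2 rose and Ndufs3 was not called. Ndufs8 had 107, 103 and 101 CPM in HFD-337 livers, against 55.9, 52.9 and 61.0 CPM in HFD-NS livers.

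Complex II had 2 falls and no rise among its 4 subunits. At an unadjusted p under 0.05 edgeR counted 0 rises, and DESeq2 and limma-voom called 0. Sdha, the flavoprotein that oxidises succinate, had 268, 319.6 and 283 CPM in HFD-337 livers, against 507, 475 and 481 CPM in HFD-NS livers. That was the largest fall among the members (log2 fold change -0.75 ± 0.0976, edgeR adjusted p = 5.98e-06), and the groups did not overlap. Sdhc, a membrane anchor, had 119, 162 and 139 CPM in HFD-337 livers, against 175, 169.6 and 178 CPM in HFD-NS livers (-0.31 ± 0.0971, edgeR adjusted p = 0.0131), and was not called without HFD-337 replicate 23 (0.0785). Sdhb, the iron-sulfur subunit that pairs with Sdha, was not called, with 168, 209 and 194 CPM in HFD-337 livers, against 156, 150.1 and 188 CPM in HFD-NS livers. The ratio of Sdhb to Sdha, in TPM, was thus 1.66, 1.73 and 1.82 in HFD-337 livers, against 0.814, 0.837 and 1.03 in HFD-NS livers. The other anchor, Sdhd, had 152, 221 and 182 CPM in HFD-337 livers, against 195, 191 and 184 CPM in HFD-NS livers, and was not called.

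In complex III 5 members rose and 2 fell of 9. Uqcrq, a small subunit near the cytochrome b core, had 568, 524 and 489.9 CPM in HFD-337 livers, against 247, 217 and 247 CPM in HFD-NS livers (1.15 ± 0.11, edgeR adjusted p = 1.98e-07). Uqcr11, another small subunit, had 196, 175 and 178 CPM in HFD-337 livers, against 113, 93.5 and 119 CPM in HFD-NS livers (0.76 ± 0.104, edgeR adjusted p = 1.05e-05), and Uqcr10 came next with a log2 fold change of 0.36 ± 0.0953 (edgeR adjusted p = 0.00416). Both large core proteins fell. Uqcrc1 had 98.6, 125 and 108 CPM in HFD-337 livers, against 137, 133 and 143 CPM in HFD-NS livers (-0.31 ± 0.0989, edgeR adjusted p = 0.0135), and was not called without HFD-337 replicate 23 (0.0689). The libraries of the 2 groups overlapped for Uqcrc2 (-0.24 ± 0.0977, edgeR adjusted p = 0.0491), whose call was lost without HFD-NS replicate 12, 13 or 16 (0.0994, 0.0535 and 0.137) and without HFD-337 replicate 23 or 27 (0.149 and 0.12). Of the subunits that carry electrons, the Rieske protein Uqcrfs1 rose, with 237, 258 and 253 CPM in HFD-337 livers, against 209, 189 and 195 CPM in HFD-NS livers. Cytochrome c1, Cyc1, had 84.1, 106 and 101 CPM in HFD-337 livers, against 99.8, 99.5 and 101 CPM in HFD-NS livers, and was not called.

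Complex IV had 6 rises and no fall among its 12 tested nuclear subunits. At an unadjusted p under 0.05 edgeR counted 0 falls here, and DESeq2 and limma-voom called 0. The largest rise was Cox7c, a small membrane-spanning subunit, with 425, 366 and 399 CPM in HFD-337 livers, against 215, 164 and 207 CPM in HFD-NS livers (1.02 ± 0.105, edgeR adjusted p = 4.5e-07). Cox5b, which faces the matrix, had 221, 237 and 217 CPM in HFD-337 livers, against 129, 111 and 138 CPM in HFD-NS livers (0.83 ± 0.102, edgeR adjusted p = 3.09e-06). Cox6a1, the isoform used in liver, had 339.8, 350.2 and 354 CPM in HFD-337 livers, against 254, 217 and 236 CPM in HFD-NS livers (0.56 ± 0.0909, edgeR adjusted p = 5.8e-05). The groups did not overlap for these genes. Cox5a, by contrast, had 97.1, 135 and 139 CPM in HFD-337 livers, against 145, 132 and 146 CPM in HFD-NS livers, and was not called.

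In complex V 10 members rose and 2 fell of 17. The rises were led by Atp5e, the small epsilon subunit of the central stalk, with 304, 325 and 289.8 CPM in HFD-337 livers, against 145, 122 and 143 CPM in HFD-NS livers (1.16 ± 0.115, edgeR adjusted p = 2.82e-07). Atp5h, subunit d of the peripheral stalk, had 336, 375 and 325 CPM in HFD-337 livers, against 215, 201 and 219 CPM in HFD-NS livers (0.71 ± 0.0969, edgeR adjusted p = 9.92e-06). The small membrane subunit Atp5mpl came next (0.65 ± 0.0967, edgeR adjusted p = 2.43e-05).

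The 2 falls in complex V were the alpha and beta subunits, which form the catalytic head. Atp5b had 554, 615 and 606 CPM in HFD-337 livers, against 887, 889.7 and 919 CPM in HFD-NS livers (-0.60 ± 0.0892, edgeR adjusted p = 2.3e-05). Atp5a1 had 512, 668 and 613 CPM in HFD-337 livers, against 861, 839 and 853 CPM in HFD-NS livers (-0.51 ± 0.103, edgeR adjusted p = 0.000495). No HFD-337 library reached an HFD-NS library for either gene. In TPM, the ratio of Atp5e to Atp5b was 2.49, 2.40 and 2.17 in HFD-337 livers, against 0.744, 0.621 and 0.706 in HFD-NS livers.

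**Figure D2:**
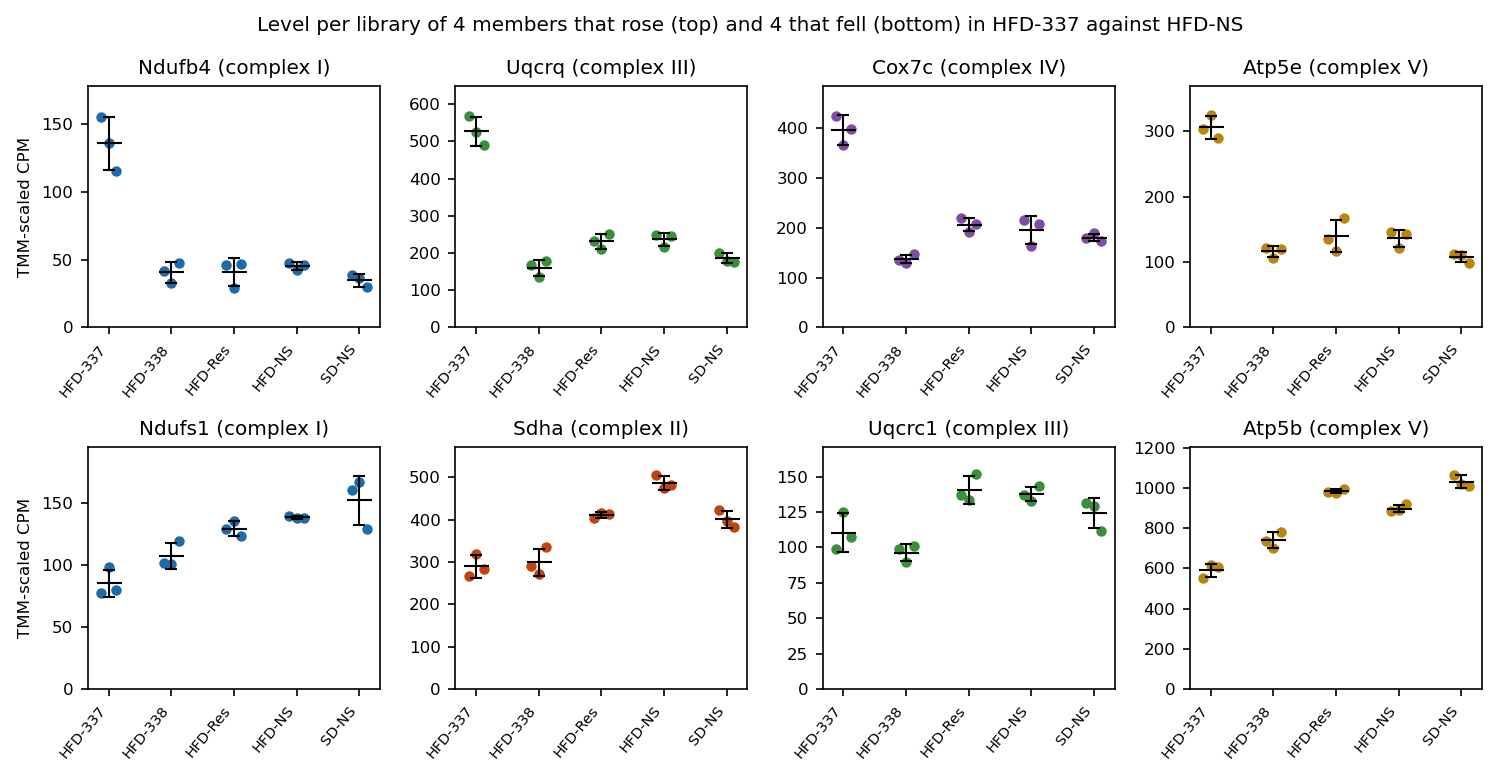
CPM in every library (points) with the group mean and SD for 4 members that rose (top: Ndufb4, Uqcrq, Cox7c, Atp5e) and 4 that fell (bottom: Ndufs1, Sdha, Uqcrc1, Atp5b) in HFD-337 against HFD-NS. In the top panels the HFD-337 libraries stand above every other library, and in the bottom panels all lie below the HFD-NS and HFD-Res libraries.

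The direction in HFD-337 livers went with the length of the gene, for the members and for all genes alike. The 46 members that rose had a median summed exon length of 640.5 bases, the 10 that fell 1767.5 bases and the 24 not called 1040.0 bases. Among members with under 600 bases of exon, 21 of 27 rose and 1 (Ndufs5) fell, with a median log2 fold change of 0.55, where 155 of all 277 tested genes of that length rose and 15 fell, with a median of 0.69. From 600 to under 1000 bases 16 of 22 members rose and none fell at a median of 0.51, beside 304 rises and 40 falls of 669 genes at a median of 0.46. From 1000 to under 2000 bases 7 of 25 members rose and 6 fell at a median of 0.00, beside 874 rises and 410 falls of 2739 genes at a median of 0.19. At 2000 bases and above 2 of 6 members rose and 3 fell at a median of -0.16, beside 1881 rises and 2541 falls of 9504 genes at a median of -0.07. These length classes were chosen after the values had been seen, and genes within a sample are not independent replicates.

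Gene span, from first to last annotated base, gave a like order. Of members spanning under 10 kb, 40 of 57 rose and 4 fell (median log2 fold change 0.49), and of those spanning 10 to 100 kb 6 of 21 rose and 6 fell (0.06). Over all genes the same classes had medians of 0.34 and -0.03. Across members the Spearman rho between change and length was -0.39 for span and -0.39 for exons (79 members), and across all tested genes it was -0.34 and -0.25 (13173 genes), all in the same libraries. With an offset for the trend of counts on exon length, 19 of the 46 rises remained called, 7 passed the test in the opposite direction, and the members' median log2 fold change was -0.10. With an offset for span, 29 rises remained, 1 was called in the opposite direction, and the median was 0.12. Of the 10 falls, all remained called under the exon offset and all but Uqcrc2 under the span offset.

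The members named above differed in how they stood up to these offsets. Under the exon offset the log2 fold change was 0.91 for Ndufb4, 0.98 for Uqcrq, 0.60 for Ndufs7, 0.46 for Atp5e, 0.42 for Ndufb7 and 0.34 for Cox7c, and it fell to 0.13 for Atp5h, which was then not called (edgeR adjusted p = 0.235). Neither Uqcr11 (edgeR adjusted p = 0.532) nor Atp5mpl (0.11) was called under it. Cox6a1 came to -0.04 and Uqcr10 to -0.21. Uqcrq has 1525 bases of exon, while Ndufb4 has 454, Cox7c 449 and Atp5e 414. The falls kept their direction, with -0.75 for Sdha, -0.71 for Atp5b, -0.69 for Ndufs1, -0.56 for Atp5a1 and -0.46 for Uqcrc1 under the exon offset. The named rises that remained called under it were Ndufb4, Ndufs7, Ndufs8, Ndufb7, Ndufv2, Uqcrq, Cox7c, Cox5b and Atp5e.

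**Figure D3:**
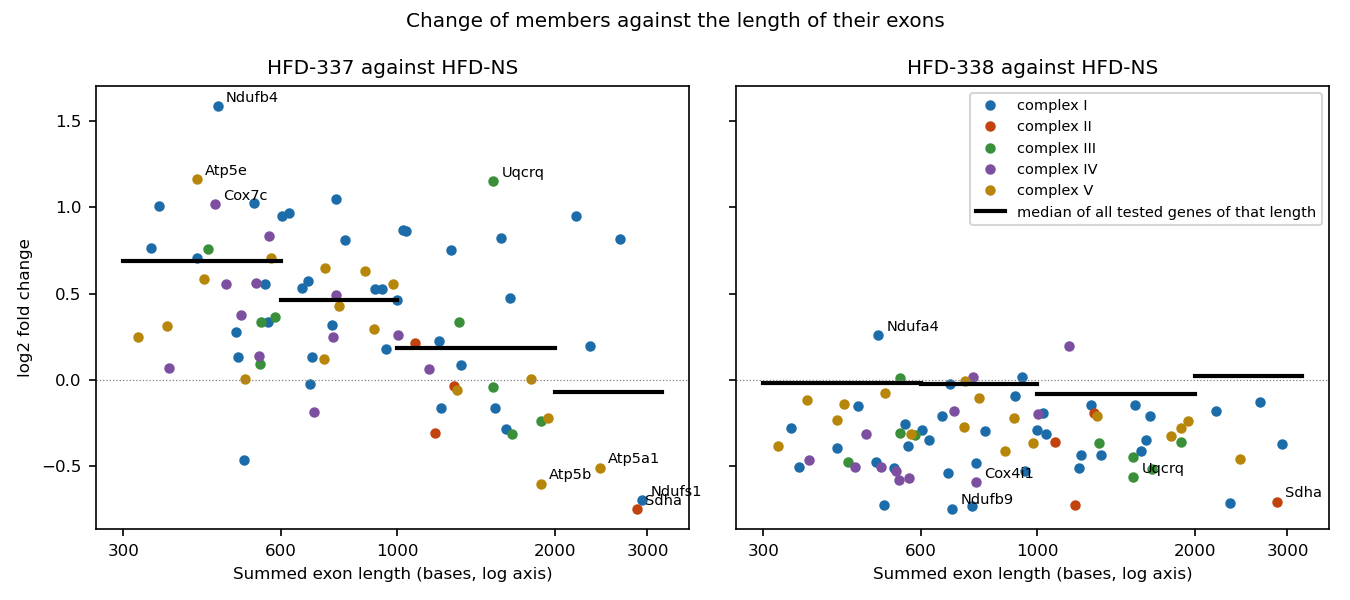
Log2 fold change of the tested members (points, coloured by complex, 1 not shown) against its summed exon length in bases on a log axis, for HFD-337 against HFD-NS (left) and HFD-338 against HFD-NS (right), with the median of all tested genes of each length class as black lines. On the left members and medians decline with length from 0.69 to -0.07 for all genes, and on the right most members lie below 0 at every length.

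Beside these changes, summed CPM of sinusoidal endothelial markers was 57.5 to 75.4 in HFD-337 livers, against 151 to 187 in HFD-NS livers, and 5 of 5 markers fell. Stellate cell markers summed to 106 to 177 CPM in HFD-337 livers, against 289 to 350 CPM in HFD-NS livers, and 4 of 5 fell. Cholangiocyte markers summed to 61.6 to 240 CPM in HFD-337 livers, against 47.5 to 63.1 CPM in HFD-NS livers, and 2 of 5 tested markers rose. Kupffer cell markers summed to 34.9 to 77.6 CPM in HFD-337 livers, against 99.9 to 134 CPM in HFD-NS livers. The sums did not overlap, and of the 5 markers edgeR called 0, with 0 at an unadjusted p under 0.05, DESeq2 called 1 fall and limma-voom 0. Of 5 hepatocyte markers 2 rose and 1 fell. The part of these cells in the members' changes was not tested.

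HFD-338 livers, in which Stk25 was also low, showed a different picture: members of every complex were lower than in HFD-NS livers. Among the 80 members, 48 fell and 0 rose by edgeR's test, where over all tested genes 36.8% were called, 18.9% as rises and 17.9% as falls. At an unadjusted p under 0.05 edgeR counted 2 rises, DESeq2 called 0 and limma-voom called 1. The median log2 fold change was -0.34 over the members and 0.00 over all genes. HFD-338 lay wholly below HFD-NS for 56 members (25.6% of all genes) and wholly above for 1 (25.4% of all genes). The comparisons of HFD-337, HFD-338 and HFD-Res with HFD-NS, and that of HFD-NS with SD-NS, share the same 3 HFD-NS libraries.

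In complex I 23 of 38 members fell, 5 of 7 core and 18 of 31 accessory subunits. Ndufb9, an accessory subunit of the membrane arm, had 119, 106 and 136 CPM in HFD-338 livers, against 209, 185 and 212 CPM in HFD-NS livers (log2 fold change -0.75 ± 0.117, edgeR adjusted p = 7.69e-05). Ndufb3, from the same arm, had 44.0, 43.4 and 51.3 CPM in HFD-338 livers, against 78.4, 72.8 and 79.3 CPM in HFD-NS livers (-0.73 ± 0.0984, edgeR adjusted p = 1.67e-05). Both genes had every HFD-338 library below every HFD-NS library, and so did Ndufs5 (-0.72 ± 0.182, edgeR adjusted p = 0.00428). The core subunit Ndufs3 had 43.6, 36.9 and 49.1 CPM in HFD-338 livers, against 64.6, 59.2 and 62.8 CPM in HFD-NS livers. Ndufs1 had 101, 101 and 119 CPM in HFD-338 livers, against 139.7, 138 and 138 CPM in HFD-NS livers, and was not called without HFD-338 replicate 17 (edgeR adjusted p = 0.0532) or 18 (0.0607). Ndufa4, the most abundant member in this group, was not called, with 373, 328 and 391 CPM in HFD-338 livers, against 335, 277 and 301 CPM in HFD-NS livers.

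Complex II had 3 of 4 subunits lower. Sdhc had 107, 97.3 and 110.5 CPM in HFD-338 livers, against 175, 169.6 and 178 CPM in HFD-NS livers (-0.73 ± 0.0974, edgeR adjusted p = 1.61e-05). Sdha had 289.9, 272 and 335 CPM in HFD-338 livers, against 507, 475 and 481 CPM in HFD-NS livers (-0.71 ± 0.0973, edgeR adjusted p = 2.16e-05). The libraries did not overlap for either. Sdhb fell less, with 123, 116 and 145 CPM in HFD-338 livers, against 156, 150.1 and 188 CPM in HFD-NS livers (-0.36 ± 0.114, edgeR adjusted p = 0.018), and was not called without HFD-NS replicate 16 (0.108), HFD-338 replicate 17 (0.0669) or HFD-338 replicate 18 (0.103). Sdhd was not called, with 165, 153 and 180.0 CPM in HFD-338 livers, against 195, 191 and 184 CPM in HFD-NS livers.

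Of complex III, 8 of 9 members fell. Uqcrq had 167, 137 and 177 CPM in HFD-338 livers, against 247, 217 and 247 CPM in HFD-NS livers (-0.56 ± 0.11, edgeR adjusted p = 0.000546), and Uqcrc1 had 98.7, 89.7 and 101 CPM in HFD-338 livers, against 137, 133 and 143 CPM in HFD-NS livers (-0.52 ± 0.0987, edgeR adjusted p = 0.000478). The small and the large subunit thus moved the same way here, and their ratio in TPM was 1.84, 1.66 and 1.91 in HFD-338 livers, against 1.96, 1.77 and 1.87 in HFD-NS livers. Uqcr11 fell by 0.47 ± 0.105 on the log2 scale (edgeR adjusted p = 0.0016). In complex IV 7 of 12 fell. Cox4i1, the ubiquitous isoform of its subunit, had 266, 234 and 269 CPM in HFD-338 livers, against 400.2, 367 and 394 CPM in HFD-NS livers (-0.59 ± 0.0981, edgeR adjusted p = 0.000125). Cox8a (-0.58 ± 0.108, edgeR adjusted p = 0.000381) and Cox5b (-0.57 ± 0.103, edgeR adjusted p = 0.000301) fell alike, with no overlap between the groups.

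Complex V had 7 of 17 members lower. Atp5a1 had 621, 579 and 658 CPM in HFD-338 livers, against 861, 839 and 853 CPM in HFD-NS livers (-0.46 ± 0.103, edgeR adjusted p = 0.00182). Atp5g1, one of the genes for the c-ring, had 33.7, 30.1 and 30.4 CPM in HFD-338 livers, against 40.4, 40.6 and 44.3 CPM in HFD-NS livers (-0.41 ± 0.0919, edgeR adjusted p = 0.00176). These groups did not overlap. Atp5k, subunit e, followed at -0.38 ± 0.1 (edgeR adjusted p = 0.00557), and was not called without HFD-338 replicate 18 (0.0559). Atp5b had 739, 703 and 784 CPM in HFD-338 livers, against 887, 889.7 and 919 CPM in HFD-NS livers (-0.28 ± 0.0888, edgeR adjusted p = 0.02), a call lost without HFD-NS replicate 16 (0.0593), HFD-338 replicate 17 (0.059) or HFD-338 replicate 18 (0.107).

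The falls in HFD-338 livers were spread over all lengths. By exon length, 17 of 27 members under 600 bases, 11 of 22 from 600 to under 1000, 16 of 25 from 1000 to under 2000 and 4 of 6 at 2000 and above fell. The medians of these classes were -0.38, -0.29, -0.35 and -0.41 on the log2 scale, and those of all tested genes were -0.02, -0.03, -0.08 and 0.02. The rho between change and exon length was -0.02 across 79 members. Of the 48 falls, 46 remained called with the span offset and 44 with the exon offset. On the scale of log2(TPM + 1), 31 remained called, and there the median of all genes was 0.12, against 0.00 in the count fit.

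Beside these falls, cholangiocyte markers summed to 582 to 734 CPM in HFD-338 livers, against 47.5 to 63.1 CPM in HFD-NS livers, and 5 of 5 tested markers rose. Stellate cell markers summed to 484 to 815 CPM in HFD-338 livers, against 289 to 350 CPM in HFD-NS livers, with 1 of 5 called. Sinusoidal endothelial markers summed to 61.3 to 108 CPM in HFD-338 livers, against 151 to 187 CPM in HFD-NS livers, and 5 of 5 fell. Kupffer cell markers summed to 59.8 to 292 CPM in HFD-338 livers, against 99.9 to 134 CPM in HFD-NS livers, with 0 called by edgeR (0 at an unadjusted p under 0.05), DESeq2 or limma-voom. Of 5 hepatocyte markers 1 fell. The part of these cells in the members' falls was not tested.

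**Figure D4:**
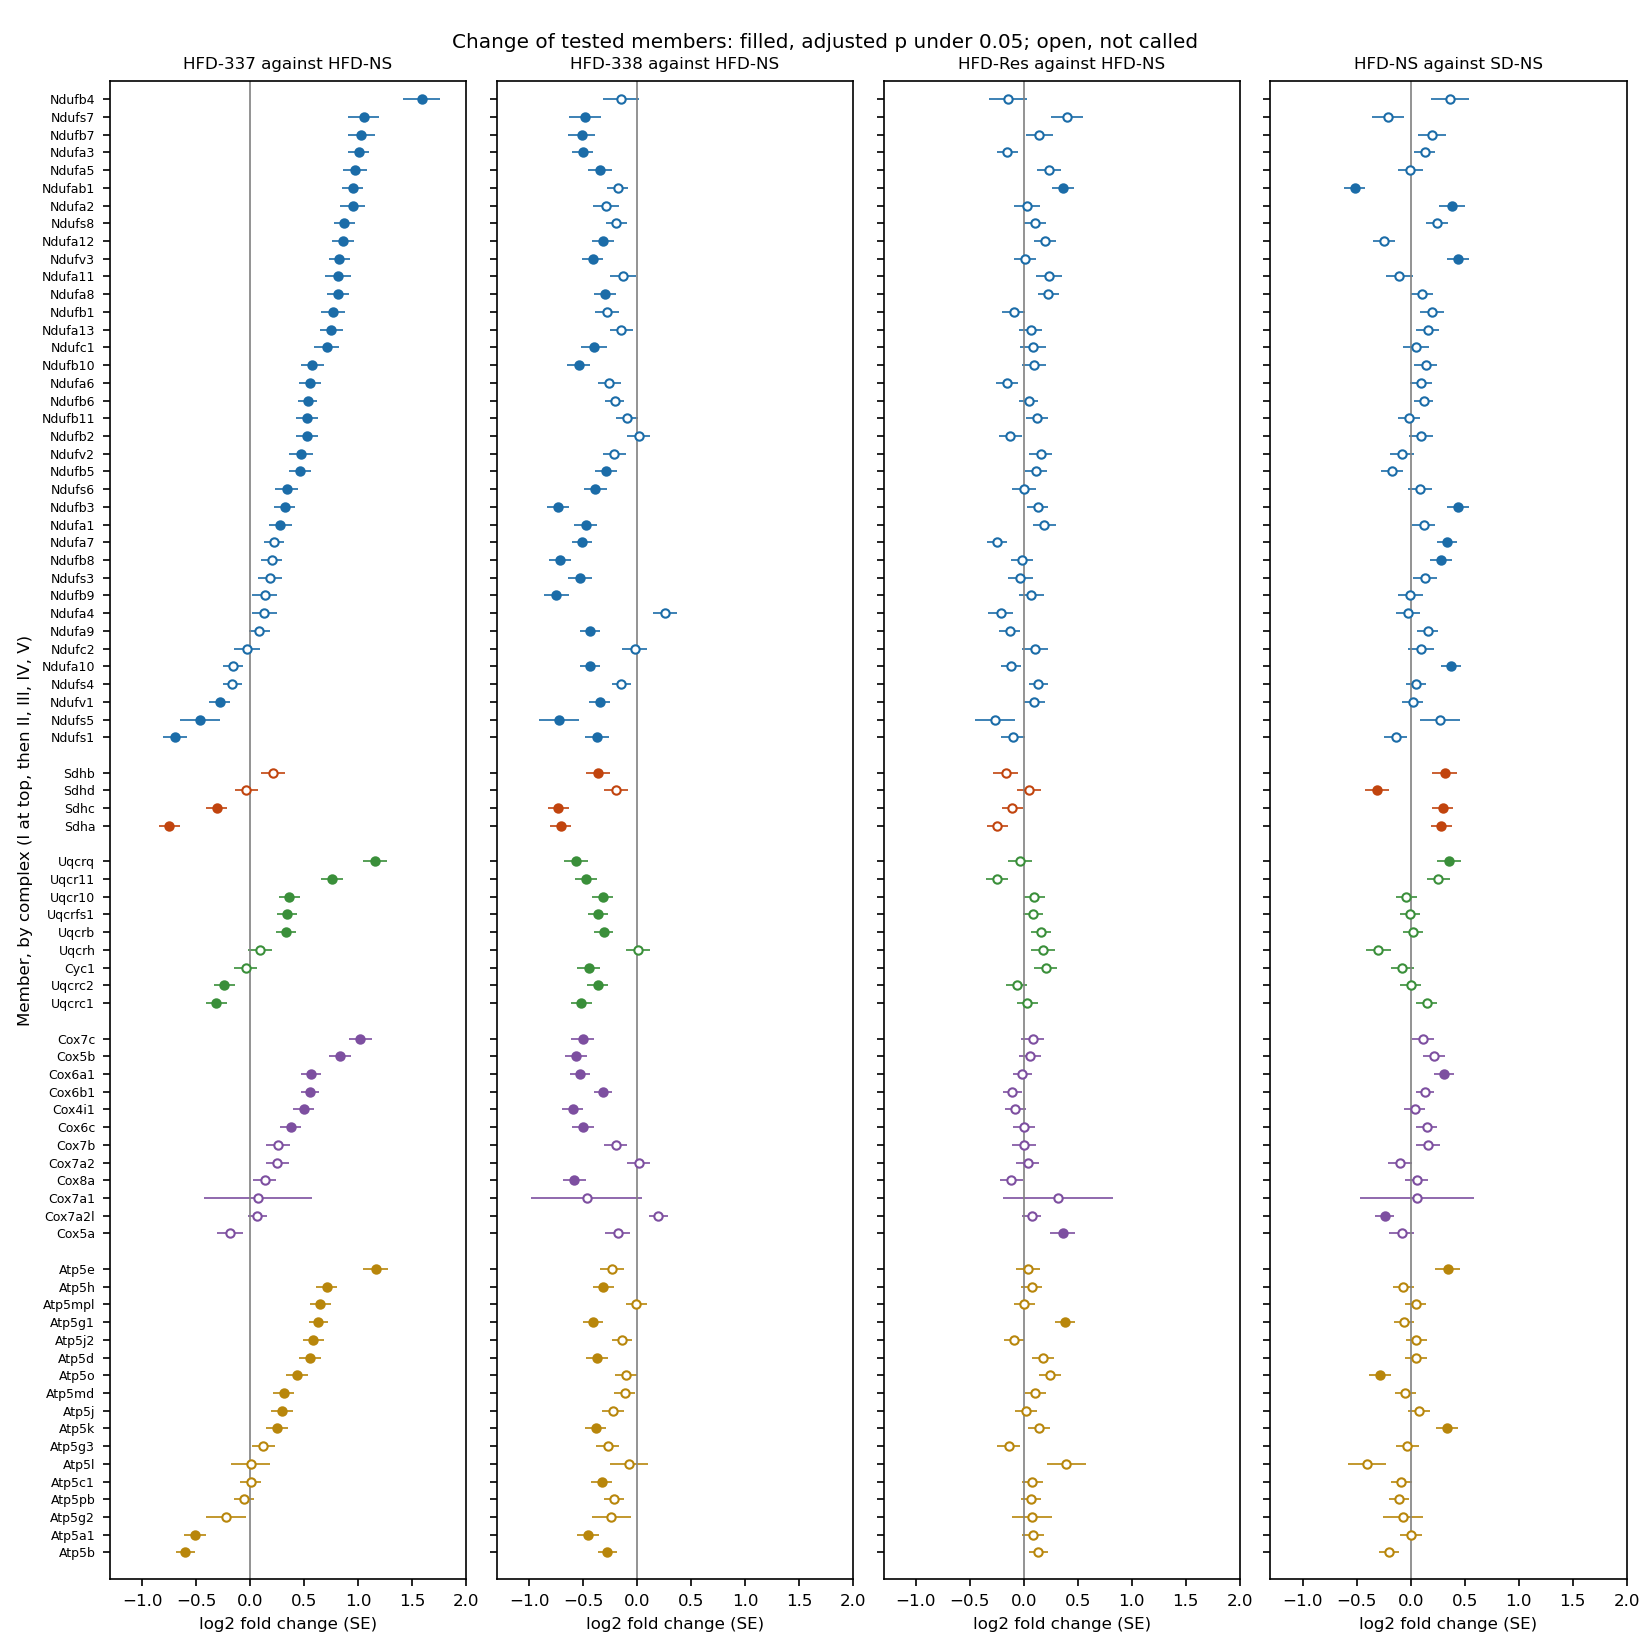
Log2 fold change of the tested members by complex (points with SE, 1 member not shown, filled where called at an adjusted p under 0.05) in the comparisons of HFD-337, HFD-338 and HFD-Res with HFD-NS and of HFD-NS with SD-NS. Medians of the members are 0.33 for HFD-337, -0.34 for HFD-338, 0.06 for HFD-Res and 0.05 for HFD-NS against SD-NS.

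HFD-337 and HFD-338 livers were then compared directly, since both had low Stk25. Most members were higher in HFD-337, with 59 rises and 2 falls (Ndufs1 and Atp5b) of 80, where 58.4% of all tested genes were called, 28.8% as rises and 29.6% as falls. The median log2 fold change of the members was 0.70. The groups did not overlap for 59 members with HFD-337 higher (31.0% of all genes) and for 2 with HFD-337 lower (31.2% of all genes). Of the accessory subunits of complex I 27 of 31 rose, and of the core subunits 4 of 7 rose and 1 fell. The members' median was 0.42 under the span offset, 0.19 under the exon offset and 0.42 on the log2(TPM + 1) scale.

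Uqcrq had the lowest adjusted p of the named members, with 568, 524 and 489.9 CPM in HFD-337 livers, against 167, 137 and 177 CPM in HFD-338 livers (log2 fold change 1.72 ± 0.112, edgeR adjusted p = 2.82e-09). Ndufb4 had the largest fold change, at 1.74 ± 0.17 (edgeR adjusted p = 6.31e-07), with 155, 136 and 116 CPM in HFD-337 livers, against 41.6, 32.8 and 47.9 CPM in HFD-338 livers. For both genes the HFD-337 libraries stood far above the HFD-338 libraries. Ndufb7 (1.54 ± 0.128, edgeR adjusted p = 3.36e-08), Ndufs7 (1.53 ± 0.148, edgeR adjusted p = 1.72e-07), Cox7c (1.52 ± 0.106, edgeR adjusted p = 5.75e-09), Cox5b (1.40 ± 0.104, edgeR adjusted p = 1.33e-08) and Atp5e (1.40 ± 0.116, edgeR adjusted p = 3.36e-08) were also higher. Atp5g1 was at 1.04 ± 0.0921 (edgeR adjusted p = 6.14e-08), with 64.8, 69.2 and 59.9 CPM in HFD-337 livers, against 33.7, 30.1 and 30.4 CPM in HFD-338 livers. The electron-carrying Uqcrfs1 had 237, 258 and 253 CPM in HFD-337 livers, against 149.9, 143 and 167 CPM in HFD-338 livers (0.70 ± 0.0932, edgeR adjusted p = 5.47e-06).

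In complex II, Sdhb was higher in HFD-337 livers (0.57 ± 0.114, edgeR adjusted p = 0.000335), and Sdhc was higher at 0.42 ± 0.0979 (edgeR adjusted p = 0.00133), although Sdhb was not called under the exon offset (0.113) and Sdhc was not called under that offset (0.536) or in recomputed TPM (0.168). Sdha was not called, with 268, 319.6 and 283 CPM in HFD-337 livers, against 289.9, 272 and 335 CPM in HFD-338 livers. Atp5a1 did not pass the test either (-0.05 ± 0.103, edgeR adjusted p = 0.68), with 512, 668 and 613 CPM in HFD-337 livers, against 621, 579 and 658 CPM in HFD-338 livers. Atp5b was lower in HFD-337 livers at -0.33 ± 0.089 (edgeR adjusted p = 0.00429). Ndufs1 was also lower, at -0.33 ± 0.11 (edgeR adjusted p = 0.0157), but not without HFD-338 replicate 19 (0.0802) or HFD-337 replicate 23 (0.0747).

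Few members were called with resmetirom. In HFD-Res livers 3 of 80 members rose and 0 fell, where 13% of all tested genes were called, 6.22% as rises and 6.74% as falls. At an unadjusted p under 0.05 edgeR counted 3 falls, and DESeq2 and limma-voom called 0. The median log2 fold change was 0.06. HFD-Res lay wholly above HFD-NS for 12 members (15.3% of all genes) and wholly below for 6 (15.4% of all genes).

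The 3 rises were in 3 complexes. Atp5g1 had 52.9, 53.1 and 57.0 CPM in HFD-Res livers, against 40.4, 40.6 and 44.3 CPM in HFD-NS livers (0.38 ± 0.0915, edgeR adjusted p = 0.00796), and this call held without any single library. Ndufab1, the mitochondrial acyl carrier protein that is also a complex I subunit, had 57.2, 63.0 and 64.8 CPM in HFD-Res livers, against 55.3, 43.1 and 45.5 CPM in HFD-NS livers (0.36 ± 0.0983, edgeR adjusted p = 0.0177). It was not called without HFD-NS replicate 13 (0.101) or 16 (0.0799), or without HFD-Res replicate 30 (0.0539) or 34 (0.0874). Cox5a had 178, 164 and 201 CPM in HFD-Res livers, against 145, 132 and 146 CPM in HFD-NS livers (0.36 ± 0.116, edgeR adjusted p = 0.0469), and was not called without HFD-NS replicate 12 (0.0783), 13 (0.168) or 16 (0.0849) or without HFD-Res replicate 29 (0.0853) or 34 (0.226). The groups did not overlap for any of the 3. Hepatocyte markers summed to 69588 to 78043 CPM in HFD-Res livers, against 97837 to 111134 CPM in HFD-NS livers, and their part here was not tested.

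HFD-337 and HFD-Res livers, the 2 treatments that the study names, were compared with each other. Of 80 members 43 rose and 9 fell, where 47.6% of all tested genes were called, 24.3% as rises and 23.3% as falls, and the median was 0.27. Ndufb4 had 155, 136 and 116 CPM in HFD-337 livers, against 46.5, 28.8 and 46.6 CPM in HFD-Res livers (1.73 ± 0.173, edgeR adjusted p = 8.94e-07). Ndufa3, a small accessory subunit, had 253, 241 and 220.0 CPM in HFD-337 livers, against 109.8, 92.9 and 117 CPM in HFD-Res livers (1.16 ± 0.0993, edgeR adjusted p = 4.32e-08). Uqcrq was higher by 1.19 ± 0.11 (edgeR adjusted p = 1.08e-07) and Atp5e by 1.12 ± 0.116 (edgeR adjusted p = 3.26e-07). In complex IV Cox7c rose by 0.94 ± 0.105 (edgeR adjusted p = 9.1e-07). Cox5a, in contrast, was lower in HFD-337 livers, with 97.1, 135 and 139 CPM against 178, 164 and 201 CPM in HFD-Res livers (-0.55 ± 0.117, edgeR adjusted p = 0.000794).

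Of the core subunits of complex I, 3 rose and 3 fell in HFD-337 against HFD-Res livers. In complex V Atp5b had 554, 615 and 606 CPM in HFD-337 livers, against 982, 978 and 998 CPM in HFD-Res livers (-0.74 ± 0.0894, edgeR adjusted p = 2.27e-06). Atp5a1 (-0.59 ± 0.103, edgeR adjusted p = 0.000116), Ndufs1 (-0.60 ± 0.111, edgeR adjusted p = 0.000212) and Sdha (-0.50 ± 0.0976, edgeR adjusted p = 0.000339) were also lower. Uqcrc1 was lower by a smaller amount (-0.35 ± 0.0997, edgeR adjusted p = 0.00761), as was Ndufv1 (-0.38 ± 0.0993, edgeR adjusted p = 0.00387). Sdhb was higher at 0.38 ± 0.115 (edgeR adjusted p = 0.0105), though not without HFD-337 replicate 26 (0.0573) or HFD-Res replicate 30 (0.0616), and not under the exon offset (0.675). The members' median was 0.04 under the span offset and -0.11 under the exon offset.

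Fewer members were called between HFD-NS and SD-NS livers than between HFD-337 or HFD-338 and HFD-NS livers. In HFD-NS livers against SD-NS livers 13 of 80 members rose and 4 fell, where 28.1% of all tested genes were called, 12% as rises and 16.1% as falls. The median log2 fold change was 0.05 over the members and -0.02 over all genes. In summed TPM, every complex was higher in each HFD-NS library than in each SD-NS library. All members together made 28694 to 30582 TPM in HFD-NS and 25590 to 27384 TPM in SD-NS libraries, without a test. HFD-NS lay wholly above SD-NS for 18 members (20.6% of all genes) and wholly below for 9 (24.2% of all genes). None of the 7 core subunits of complex I was called by edgeR. At an unadjusted p under 0.05 it counted 1 core rise and 0 core falls, and DESeq2 and limma-voom called 0.

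Of complex I accessory subunits 6 rose and 1 fell. Ndufv3, a small subunit beside the NADH site, had 80.3, 77.8 and 83.1 CPM in HFD-NS livers, against 63.0, 52.5 and 62.4 CPM in SD-NS livers (0.44 ± 0.102, edgeR adjusted p = 0.00349). Ndufb3 had 78.4, 72.8 and 79.3 CPM in HFD-NS livers, against 60.6, 54.8 and 54.3 CPM in SD-NS livers (0.44 ± 0.0994, edgeR adjusted p = 0.00308). Ndufab1 fell, with 55.3, 43.1 and 45.5 CPM in HFD-NS livers, against 72.7, 66.1 and 67.5 CPM in SD-NS livers (-0.52 ± 0.098, edgeR adjusted p = 0.000669). The groups did not overlap for these genes, and each call held without any single library. Ndufab1 was thus lower in HFD-NS than in SD-NS livers and, within the limits given above, higher in HFD-Res than in HFD-NS livers. Both comparisons use the same HFD-NS libraries, so low values there push these changes in opposite directions. HFD-Res was not compared with SD-NS.

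All 4 complex II subunits passed the test, but none firmly. Sdha rose to 507, 475 and 481 CPM in HFD-NS livers, against 422, 397 and 383 CPM in SD-NS livers (0.28 ± 0.0971, edgeR adjusted p = 0.036). Sdhb (0.31 ± 0.115, edgeR adjusted p = 0.0473) and Sdhc (0.30 ± 0.0974, edgeR adjusted p = 0.0294) rose, and Sdhd fell to 195, 191 and 184 CPM in HFD-NS livers, against 234, 239 and 236 CPM in SD-NS livers (-0.31 ± 0.108, edgeR adjusted p = 0.0368). Sdhc and Sdhd lost the call when any 1 of the 6 libraries was left out, with adjusted p of 0.0539 to 0.091 for Sdhc and 0.0605 to 0.11 for Sdhd. Sdha lost it without SD-NS replicate 7 or 8 or HFD-NS replicate 12, 13 or 16 (0.0634 to 0.124), and Sdhb without SD-NS replicate 6, 7 or 8 or HFD-NS replicate 12 or 16 (0.0547 to 0.247). In the other complexes the named rises were Uqcrq, Cox6a1, Atp5e and Atp5k and the named falls Cox7a2l, which helps complexes III and IV associate, and Atp5o, the stalk subunit that confers sensitivity to oligomycin. Each of these 6 lost its call without at least 1 library.

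Other mitochondrial gene lists were set beside the subunits, chosen with earlier results of these data known. In HFD-337 against HFD-NS livers, where 24.4% of all tested genes rose and 22.8% fell, of 57 assembly factors 25 rose and 8 fell (median log2 fold change 0.22), and of 18 genes of the tricarboxylic acid cycle 1 rose and 10 fell (-0.46). Of 22 electron carrier and coenzyme Q genes 5 rose and 6 fell (0.03), of 21 regulators of mitochondrial biogenesis 7 rose and 5 fell (0.19), of 8 genes of ATP export and uncoupling 1 rose and 3 fell (-0.19), and of 21 contact site and prohibitin genes 3 rose and 12 fell (-0.32). In HFD-338 against HFD-NS livers, where 18.9% of all tested genes rose and 17.9% fell, the same lists had 0 rises and 26 falls (-0.35), 1 and 10 (-0.30), 1 and 8 (-0.29), 1 and 4 (-0.25), 1 and 2 (-0.06), and 0 and 11 (-0.31). For assembly factors 1 rise passed an unadjusted p under 0.05 there and for contact site genes 0 did, and DESeq2 and limma-voom called 0 rises in either.

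Among these genes, Suclg2 and Suclg1 of the succinyl-CoA step, which feeds complex II, were below HFD-NS livers in both groups with low Stk25. This was not particular to those groups, since Suclg2 was also called as a fall in HFD-Res livers. It was called as a rise in HFD-NS against SD-NS livers, and all these comparisons use the same HFD-NS libraries. Sucla2, of the same step, was called as a fall in HFD-337 livers. Suclg2 had 142, 158 and 128 CPM in HFD-337 livers and 163, 174 and 193 CPM in HFD-338 livers, against 278, 306 and 284 CPM in HFD-NS livers. Its log2 fold change was -1.02 ± 0.0996 in HFD-337 (edgeR adjusted p = 2.53e-07) and -0.71 ± 0.0985 in HFD-338 livers (edgeR adjusted p = 2.27e-05). Suclg1 fell in both as well, by 0.87 ± 0.115 (edgeR adjusted p = 7.23e-06) and by 0.52 ± 0.114 (edgeR adjusted p = 0.00158) on the log2 scale. Etfdh, which hands electrons released by fatty acid oxidation on to ubiquinone, had 106, 165 and 122 CPM in HFD-337 livers and 269, 282 and 312 CPM in HFD-338 livers, against 477, 445 and 426 CPM in HFD-NS livers. Its log2 fold change was -1.77 ± 0.128 in HFD-337 livers (edgeR adjusted p = 1.03e-08) and -0.64 ± 0.124 in HFD-338 livers (edgeR adjusted p = 0.000514).

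Of the regulators, Esrra, a nuclear receptor that drives respiratory chain genes, had 27.8, 29.2 and 30.6 CPM in HFD-337 livers, against 11.1, 9.19 and 12.97 CPM in HFD-NS livers (1.39 ± 0.138, edgeR adjusted p = 3.03e-07). Its relative Esrrg had 1.38, 5.3 and 0.812 CPM in HFD-337 livers and 0.57, 1.36 and 1.31 CPM in HFD-338 livers, against 7.71, 7.45 and 9.7 CPM in HFD-NS livers. Esrrg fell by 2.94 ± 0.513 on the log2 scale in HFD-338 livers (edgeR adjusted p = 0.000462) and by 1.54 ± 0.454 in HFD-337 livers (edgeR adjusted p = 0.0121), the second of which was not called under the span offset (0.177). Gabpa, a gene of the factor GABP, was called as a fall in both HFD-337 and HFD-338 livers against HFD-NS livers. The estrogen-related receptor motif stood in 0 of 40 matched members that rose in HFD-337 livers and in 0 of 5 that fell. The part of these regulators in the members' changes was not tested. Pet100, a complex IV assembly factor, had 73.4, 65.8 and 57.6 CPM in HFD-337 livers, against 34.4, 20.98 and 25.9 CPM in HFD-NS livers (1.27 ± 0.146, edgeR adjusted p = 1.44e-06).

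In HFD-Res against HFD-NS livers, where 6.22% of all tested genes rose and 6.74% fell, 4 of 57 assembly factors rose and 3 fell (median -0.01), and 4 of 22 carrier and coenzyme Q genes rose and 2 fell (0.02). Of 18 cycle genes 5 rose and 2 fell (0.11), of 8 export genes 1 rose and 0 fell (0.05), and of 21 contact site genes 1 rose and 0 fell (0.01). None of the 21 biogenesis regulators was called by edgeR (median -0.01), with 4 rises and 2 falls at an unadjusted p under 0.05, 0 calls by DESeq2 and 2 rises by limma-voom. At an unadjusted p under 0.05 there were 0 falls of export genes and 2 of contact site genes, of which DESeq2 called 0 and limma-voom 1.

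Idh3a, a subunit of NAD-dependent isocitrate dehydrogenase, had 87.8, 103 and 92.0 CPM in HFD-Res livers, against 38.1, 35.9 and 30.9 CPM in HFD-NS livers (1.43 ± 0.123, edgeR adjusted p = 1.57e-07). Gpd2, the mitochondrial glycerol-3-phosphate dehydrogenase that reduces ubiquinone and is known to respond to thyroid hormone in rodent liver, had 85.4, 106 and 106 CPM in HFD-Res livers, against 50.4, 46.4 and 43.2 CPM in HFD-NS livers (1.09 ± 0.117, edgeR adjusted p = 2.91e-06). Cox10, an enzyme of the pathway to the heme of complex IV, had 10.7, 16.1 and 14.2 CPM in HFD-Res livers, against 7.82, 5.59 and 6.96 CPM in HFD-NS livers (1.01 ± 0.183, edgeR adjusted p = 0.000796). The libraries did not overlap for these genes. Cytochrome c, Cycs, had 88.0, 82.1 and 91.4 CPM in HFD-Res livers, against 71.6, 52.5 and 63.9 CPM in HFD-NS livers (0.48 ± 0.107, edgeR adjusted p = 0.00492). Idh3a, Gpd2, Cox10 and Cycs were each also called as falls in HFD-NS against SD-NS livers. The same HFD-NS libraries serve both comparisons, so low values there push the changes of these genes in opposite directions.

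In HFD-NS against SD-NS livers, where 12% of all tested genes rose and 16.1% fell, 10 of 57 assembly factors rose and 4 fell (median 0.22), and 2 of 18 cycle genes rose and 5 fell (-0.14). Of 22 carrier and coenzyme Q genes 3 rose and 3 fell (0.01), of 21 regulators 1 rose and 5 fell (-0.24), of 8 export genes 0 rose and 4 fell (-0.07), and of 21 contact site genes 3 rose and 4 fell (-0.09). For the export genes edgeR counted 3 rises at an unadjusted p under 0.05, DESeq2 called 3 and limma-voom 1. Fh1, fumarate hydratase, had 177, 177 and 174 CPM in HFD-NS livers, against 348, 353 and 300.1 CPM in SD-NS livers (-0.92 ± 0.101, edgeR adjusted p = 3.32e-06). Gpd2 (-0.70, edgeR adjusted p = 0.000236) and Cycs (-0.61, edgeR adjusted p = 0.000381) were also lower in HFD-NS livers.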

How the data were processed

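The authors deposited exon read counts per gene, unstranded, in which a read over several genes adds to each of them, per the file headers. Polyadenylated RNA was selected, per the labels' protocols. Tools and build named in the submitters' processing notes are featureCounts 2.0.1, STAR 2.7.10b (an aligner), Bowtie 1.3.1 in a role not stated, Trim Galore 0.6.10 and mm39. The authors also deposited TPM, of which 12 columns match, to within 0.001, values made anew from counts over exon length, and 3 columns could not be tied to a library and were not used. Reads that map to several places were not requested in counting, per the file headers, so members with close pseudogene copies are uncertain. Exons of 10 members overlap another gene, by over 20% of their length for Ndufa13 alone.

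Counts of all 15 libraries were fitted together with edgeR 4.0.16 (R 4.3.3; TMM scaling, filterByExpr, robust quasi-likelihood) on 13189 genes, with 1 coefficient per group. CPM are per TMM-scaled library size. Benjamini-Hochberg adjustment ran over all tested genes. Alternatives were RLE scaling, DESeq2 1.42.0, no low-count filter, limma-voom weighted by library quality (limma 3.58.1), a fit of only the 2 groups compared, log2(TPM + 1) with limma, for genes at 1 TPM or more in 3 libraries, lowess offsets on gene span and on exon length, and each library left out. TPM sums and motifs were computed with pandas 2.3.3. On simulated data with known changes, the fit of HFD-337 against HFD-NS recovered 63% of genes changed 2-fold and 26.5% of those changed 1.5-fold. It gave no called change of the wrong sign. The simulation changed far fewer genes than were called in the data.

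The members, lists, length classes and comparisons were chosen with earlier results of these data known. Genes were named by a rule: up to 3 of the largest called rises and falls of each complex in each comparison, among members averaging 1 CPM or more, with the complex II subunits, the core of complex I, Cyc1, Uqcrfs1, Uqcrq, the isoforms of complex IV, Atp5a1 and Atp5b nameable whatever their result (1 member is not reported here by name), and up to 3 genes a direction of each other list. The most abundant members, and Ndufv1 and Uqcrc2, were named for their level or to complete a count. Gene lists of other cell types were summed in CPM. Besides those in the text, red blood cell markers summed to 170 to 678 CPM in HFD-337, 188 to 301 in HFD-338, 135 to 195 in HFD-Res, 163 to 242 in HFD-NS and 107 to 228 CPM in SD-NS livers, and pancreas markers to 15.9 to 49.9 CPM in HFD-337, 5.07 to 8.77 in HFD-338, 22.3 to 40.2 in HFD-Res, 7.57 to 16.1 in HFD-NS and 3.38 to 13.4 CPM in SD-NS livers.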

Additional observations from a re-analysis of the deposited data

How the results depend on the processing

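Counts of called members kept their sides in most fits and moved chiefly with a length correction. In HFD-337 against HFD-NS, the count fit gave 46 rises and 10 falls. The span offset gave 29 rises, and the exon-length offset gave 19 rises and 29 falls. Leaving out a library gave 40 to 48 rises and 5 to 10 falls, 5 without HFD-337 replicate 23. In HFD-338 against HFD-NS, the 48 falls became 31 on TPM and ranged from 32 to 54 without a library, and rises were 1 by limma-voom, 2 on TPM, 1 with the span offset, 2 with the exon offset and 0 without any single library. In HFD-Res against HFD-NS, TPM gave 1 fall, and leaving out a library gave 1 to 2 rises and 0 falls.

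In HFD-337 against HFD-338, falls were 11 on recomputed TPM, 10 on deposited TPM, 6 with the span offset and 11 with the exon offset, against 2 in the count fit, and rises were 36 with the exon offset. Leaving out a library gave 57 to 62 rises and 1 to 2 falls. In HFD-337 against HFD-Res, falls were 19 on recomputed TPM, 16 on deposited TPM, 16 with the span offset and 33 with the exon offset, against 9, and rises were 13 with the exon offset. Without a library there were 34 to 46 rises and 8 to 12 falls. In HFD-NS against SD-NS, falls were 1 with RLE scaling, without a filter and on TPM, 7 by limma-voom and 8 with the exon offset, and rises were 22 on TPM and 7 with either offset. Without a library there were 3 to 12 rises and 1 to 3 falls. The cause of each of these moves was not tested.

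Over all genes, falls in HFD-NS against SD-NS were 1098 on TPM against 2122, rises there 1054 without SD-NS replicate 7 against 1589, falls in HFD-338 against HFD-NS 1359 on TPM against 2357, falls in HFD-Res against HFD-NS 553 without HFD-Res replicate 34 against 889, and rises in HFD-337 against HFD-338 2187 and 2112 on recomputed and deposited TPM against 3794.

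Under the exon offset, 7 of the 46 rises in HFD-337 against HFD-NS, 1 of the 59 in HFD-337 against HFD-338 and 4 of the 43 in HFD-337 against HFD-Res were called in the opposite direction. Single genes were checked only where the naming rule picked them in the same comparison, besides the complex II subunits, Atp5a1, Atp5b, Ndufs1 and Ndufv1. Other members called in the opposite direction are thus not listed. Estimates that changed sign on the log2 scale, where either fit called the gene, were as follows. They were Cox6a1 at -0.045 (exon offset) and Uqcr10 at -0.068 (span) and -0.21 (exon) in HFD-337 against HFD-NS. In HFD-337 against HFD-338 this was Ndufv1 at -0.22 (TPM) and -0.30 (span), called in both of these fits but not in the count fit (0.063). In HFD-337 against HFD-Res they were Atp5j2 at -0.055 and Cox6b1 at -0.046 (exon) and Uqcr10 at -0.17 (span) and -0.34 (exon). Under the exon offset Uqcr10 was called against HFD-NS (edgeR adjusted p = 0.0498) and against HFD-Res (0.00294). Cox6a1, Atp5j2 and Cox6b1 were not called under it.

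No paired analysis was possible because the groups share no replicate numbers. Libraries of 3873903 to 9797743 counts limit members of few counts such as Cox7a1 and Ndufs5.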
